A study of Mus musculus with 11 samples.

Results

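The genes described here are the G1 cyclins, their kinases and the E2F factors that act on entry into S phase. They were given as a list of 10 symbols (Ccnd2, Ccnd3, Ccne1, Ccne2, Cdk2, Cdk4, Cdk6, E2f1, E2f2 and E2f3) and each was read from its probe set with the highest mean signal among those assigned to that symbol alone. Of the 10 listed genes, 9 were measured in this way, out of 22180 genes in all, and each of the 9 had 1 such probe set. Ccne2 shares its probe set with its neighbour Ints8 in the platform annotation, so no value is given for it.

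The samples were 11 arrays of total RNA from 720, an established murine line of T-cell acute lymphoblastic leukaemia (T-ALL). Per the labels it came from a mouse with 1 intact copy of Tcf12 (Tcf12+/-) and a Tal1 transgene under the Lck promoter, which is active in T-lineage cells, and every group shares this background. Cells received, for 8 h, 1 of 3 compounds described as inhibitors of the Runt domain, the DNA-binding part of the RUNX factors. AI-7-54 was given at 100 µM and has 3 arrays (replicates 1, 3 and 4), AI-8-45 was given at 100 µM and has 4, and AI-9-54 was given at 50 µM and has 4. Cells without a compound were not analysed here, so a difference is always one between compounds and says nothing of the response to treatment itself. In the comparisons with AI-9-54, compound and dose cannot be told apart. The labels do not say that replicates were separate cultures, so p-values rest on a spread among arrays that could be technical alone.

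In G1, D-type cyclins bind CDK4 and CDK6, and E-type cyclins bind CDK2. These kinases phosphorylate the retinoblastoma family of pocket proteins, which otherwise hold E2F factors in check. Released E2F1, E2F2 and E2F3, paired with a DP protein, activate genes of DNA replication, and Ccne1 and E2f1 are themselves known E2F target genes. Cyclin D3 and CDK6 are known for their part in the growth of immature T cells and of T-ALL.

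Array medians over all probe sets lay between 6.61 and 6.68 on the log2 scale. T-lineage markers (9 of 12 measured) had array means of 10.34 to 11.09, and the T-cell receptor subunit gene Cd3e lay between 12.96 and 13.06 on every array. The markers of B-lineage, myeloid, erythroid and stromal cells (19 genes measured) had list means per array between 5.60 and 7.92, and 0 of the 19 passed limma's test in any comparison, against 0, 2 and 3 at an unadjusted p under 0.05. Among the 19, Pecam1 was bright on every array (11.14 to 11.44), Epor lay between 8.35 and 8.81 and Pdgfrb between 8.23 and 8.92. Of the 9 T-lineage markers, 6 were called lower with AI-9-54 than with AI-7-54 (list mean 10.46 against 10.94), beside 7.29% of all genes. With AI-8-45, at a list mean of 10.76, 1 was called lower than with AI-7-54, beside 3.53% of all genes. With AI-9-54, 3 were called lower than with AI-8-45, beside 0.6%. The list was not uniform: Cd3d lay between 11.65 and 11.90 and Cd3g between 12.92 and 13.07 on every array. The 9 differences of AI-9-54 from AI-7-54 ranged from -1.40 to 0.02, with 8 below 0. In bulk RNA of a cell line, fewer cells with a transcript and less of it per cell cannot be told apart. The part of these markers in the other results was not tested. The arrays of replicates 1 and 2 also differed from those of replicates 3 and 4, so values within each of these replicate sets are given beside the differences. With the set in the model, 7.07% of all genes differed between sets.

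Among the 9 measured genes, E2f1, Ccne1, Ccnd3 and E2f3 were lower after AI-8-45 than after AI-7-54 at the same dose, by log2 differences of -0.45 to -0.19. The same 4 genes and Cdk6 had lower signal in the AI-9-54 group than in the AI-7-54 group, by -0.48 to -0.18, and none of the 9 passed the test in the opposite direction in either comparison. These 2 comparisons share the AI-7-54 arrays, so they are not independent of each other. Ccnd2, Cdk2, Cdk4 and E2f2 passed the test in no comparison. A gene was called at a limma p under 0.05 after Benjamini-Hochberg adjustment over all 22180 genes. With AI-8-45 against AI-7-54, 4 of 9 were called lower, beside 3.53% of all genes called lower (5.66% in either direction), and their median difference was -0.11 beside 0.00 for all genes. Without any 1 of the AI-7-54 arrays, or without replicate 2 or 4 of AI-8-45, 2 of 9 were called (Ccne1 and E2f1). The number of all genes called lower, 782 with every array, was 358 when AI-7-54 replicate 3 was left out and 402 when replicate 4 of that group was. With AI-9-54 against AI-7-54, 5 of 9 were called lower beside 7.29% of all genes (14.2% in either direction), with a median of -0.20 beside 0.00, and 3 of 9 were called without any 1 of the AI-7-54 arrays or without replicate 3 or 4 of AI-9-54. Between AI-9-54 and AI-8-45, limma called 0 of 9 (3 at an unadjusted p under 0.05), beside 1.31% of all genes called in either direction, 0.708% higher and 0.6% lower (11.4% at an unadjusted p under 0.05).

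**Figure D1:**
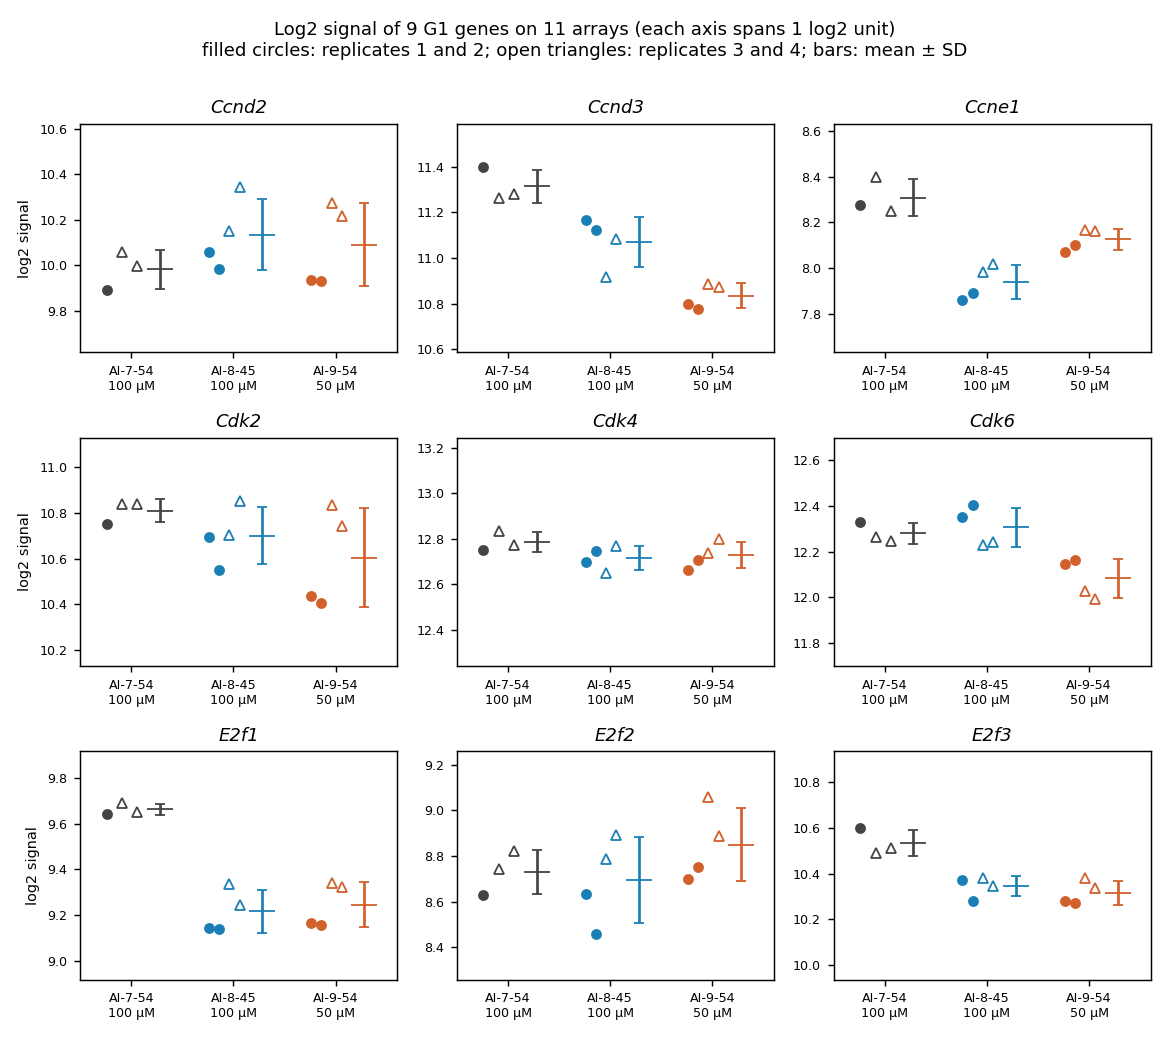
Log2 signal (vertical axes, each spanning 1 log2 unit) of the 9 measured genes in the 3 compound groups, with 1 point per array (filled circles, replicates 1 and 2; open triangles, replicates 3 and 4) and bars for the mean ± SD (n = 3, 4 and 4). E2f1 lies between 9.64 and 9.69 on the AI-7-54 arrays and between 9.14 and 9.34 on the other 8 arrays, while the groups overlap for Ccnd2, Cdk2, Cdk4 and E2f2.

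Among the D-type cyclins, Ccnd3 differed most between groups. Its log2 signal was 11.40, 11.26 and 11.28 on the AI-7-54 arrays, 11.16, 11.12, 10.92 and 11.08 on the AI-8-45 arrays, and 10.80, 10.77, 10.89 and 10.87 on the AI-9-54 arrays. No 2 groups overlapped, with AI-7-54 highest and AI-9-54 lowest. Such a gap below AI-7-54 was seen for 9.07% of all genes with AI-8-45 and for 12% with AI-9-54, and 2.84% of genes lay below AI-8-45 with AI-9-54. The difference from AI-7-54 was -0.24 ± 0.06 (SE, adjusted p 0.0399) with AI-8-45 and -0.48 ± 0.06 (adjusted p 0.000266), or 1.39-fold lower, with AI-9-54. The call for AI-8-45 was kept in 3 of 11 fits with 1 array left out (adjusted p 0.0382 to 0.141): it ended without any 1 of the 3 AI-7-54 arrays, without replicate 2, 3 or 4 of AI-8-45, and without replicate 1 or 4 of AI-9-54. The call for AI-9-54 was kept in all 11 (0.0000971 to 0.00183). Within replicates 1 and 2 the differences were -0.25 with AI-8-45 and -0.61 with AI-9-54, and within replicates 3 and 4 they were -0.27 and -0.39. AI-9-54 lay below AI-8-45 by -0.24 (95% interval -0.36 to -0.11), which missed the threshold (adjusted p 0.0771) and passed it without AI-8-45 replicate 3 (adjusted p 0.025) and when the fit included the replicate set (adjusted p 0.0377). Replicates 1 and 2 alone gave -0.35 for that difference (adjusted p 0.148), and replicates 3 and 4 alone gave -0.12 (adjusted p 0.542). It passed in 3 of 23 alternatives.

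Ccnd2, the other D-type cyclin of the list, showed no such order. It was 9.89, 10.06 and 10.00 with AI-7-54, 10.06, 9.98, 10.15 and 10.34 with AI-8-45, and 9.94, 9.93, 10.27 and 10.22 with AI-9-54, so all groups overlapped. Its differences from AI-7-54 were 0.15 (95% interval -0.07 to 0.37) with AI-8-45 and 0.11 (-0.11 to 0.33) with AI-9-54. Replicates 3 and 4 were higher than replicates 1 and 2 by 0.24 for Ccnd2. With the set in the model, 4 of the 9 genes were called between sets (Ccnd2, Cdk2, E2f2 and, in the opposite direction, Cdk6), beside 7.07% of all genes. Ccnd1, the remaining D-type cyclin gene, had group means of 6.31 to 6.40, below the array medians over all probe sets, which makes it a dim signal.

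Of the kinases that D-type cyclins bind, Cdk6 was lower with AI-9-54 and Cdk4 differed little between groups. Cdk6 was 12.33, 12.26 and 12.24 with AI-7-54 and 12.35, 12.40, 12.23 and 12.24 with AI-8-45, and the 2 groups overlapped. It was 12.14, 12.17, 12.03 and 11.99 with AI-9-54, below every array of the other groups. The difference of AI-9-54 from AI-7-54 was -0.20 ± 0.06 (SE, adjusted p 0.0434), at -0.18 within replicates 1 and 2 and -0.24 within replicates 3 and 4. The call was kept in 5 of 11 fits with 1 array left out (adjusted p 0.037 to 0.146) and ended without any 1 of the AI-7-54 arrays, without AI-8-45 replicate 1, and without replicate 3 or 4 of AI-9-54. Against AI-8-45 the difference was -0.22 (95% interval -0.34 to -0.10, adjusted p 0.0806), with -0.22 within each replicate set (adjusted p 0.281 and 0.156). It passed in 4 of 23 alternatives, among them the fit that included the set (adjusted p 0.00448). Between the compounds given at 100 µM, Cdk6 differed by 0.03 with a 95% interval of -0.10 to 0.16. Cdk4 lay between 12.65 and 12.84 on all 11 arrays, and its differences were -0.07 (-0.17 to 0.03) for AI-8-45 and -0.06 (-0.16 to 0.04) for AI-9-54 against AI-7-54.

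Ccne1, which encodes the CDK2 partner cyclin E1, was lowest with AI-8-45. It was 8.27, 8.40 and 8.25 with AI-7-54, 7.86, 7.89, 7.98 and 8.02 with AI-8-45, and 8.07, 8.10, 8.17 and 8.16 with AI-9-54. The groups did not overlap, and AI-9-54 lay between the other compounds. Against AI-7-54 the difference was -0.37 ± 0.05 (SE, adjusted p 0.00189) with AI-8-45, or 1.29-fold lower, and -0.18 ± 0.05 (adjusted p 0.04) with AI-9-54. The first call held whichever of the 11 arrays was left out (adjusted p at most 0.0141), with -0.40 within replicates 1 and 2 and -0.32 within replicates 3 and 4. The second was kept in 4 of 11 (adjusted p 0.0384 to 0.19) and ended without any 1 of the AI-7-54 or AI-9-54 arrays, with within-set values of -0.19 and -0.16. AI-9-54 was above AI-8-45 by 0.19 (95% interval 0.08 to 0.30, adjusted p 0.108), a difference that passed in 1 of 23 alternatives, the fit that included the replicate set (adjusted p 0.027). It was 0.21 within replicates 1 and 2 (adjusted p 0.29) and 0.16 within replicates 3 and 4 (adjusted p 0.378). For 3.83% of all genes AI-9-54 lay above AI-8-45 without overlap.

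Cdk2, the kinase of the E-type cyclins, spread widely within the AI-9-54 group. It was 10.75, 10.84 and 10.84 with AI-7-54, 10.70, 10.55, 10.70 and 10.85 with AI-8-45, and 10.44, 10.41, 10.84 and 10.74 with AI-9-54. The AI-9-54 arrays of replicates 1 and 2 lay below all others, and those of replicates 3 and 4 lay inside the range of the other groups. The difference of AI-9-54 from AI-7-54 was -0.33 for replicates 1 and 2 alone, -0.05 for replicates 3 and 4 alone, and over all arrays -0.21 (95% interval -0.43 to 0.02, adjusted p 0.247). That of AI-8-45 was -0.11 (-0.33 to 0.11).

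**Figure D2:**
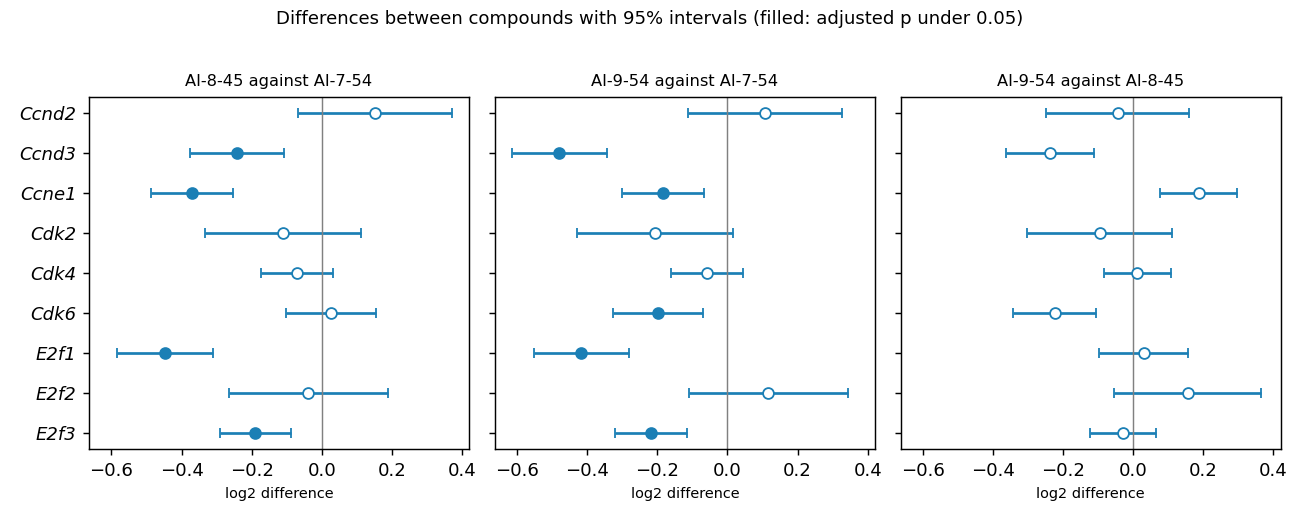
Log2 differences (horizontal axes) of the 9 genes in the 3 comparisons, with 95% intervals from the limma fit; filled points have an adjusted p under 0.05. The intervals of E2f1 reach from -0.58 to -0.31 with AI-8-45 and from -0.55 to -0.28 with AI-9-54, both against AI-7-54, while those of Cdk4 lie between -0.17 and 0.11 in every comparison.

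Of the E2F activators, E2f1 and E2f3 were lower with both compounds than with AI-7-54, and E2f2 passed no test. E2f1 was 9.64, 9.69 and 9.65 with AI-7-54, 9.14, 9.14, 9.34 and 9.24 with AI-8-45, and 9.16, 9.16, 9.34 and 9.32 with AI-9-54. The AI-7-54 arrays lay above all others, and the remaining groups overlapped almost fully. Against AI-7-54 the difference was -0.45 ± 0.06 (SE, adjusted p 0.00142) with AI-8-45, or 1.36-fold lower, and -0.42 ± 0.06 (adjusted p 0.000765) with AI-9-54. Both calls held whichever of the 11 arrays was left out, at an adjusted p of at most 0.012 and 0.00597. Within replicates 1 and 2 the differences were -0.50 and -0.48, and within replicates 3 and 4 they were -0.38 and -0.34. AI-9-54 and AI-8-45 differed by 0.03 (95% interval -0.10 to 0.16).

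E2f3 changed in the same direction by a smaller amount. It was 10.60, 10.49 and 10.51 with AI-7-54, 10.37, 10.28, 10.38 and 10.35 with AI-8-45, and 10.28, 10.27, 10.38 and 10.34 with AI-9-54, and again the AI-7-54 arrays lay above all others. The differences from AI-7-54 were -0.19 ± 0.05 (SE, adjusted p 0.0335) with AI-8-45 and -0.22 ± 0.05 (adjusted p 0.00741) with AI-9-54. They were larger within replicates 1 and 2 (-0.27 and -0.33) than within replicates 3 and 4 (-0.14 for each compound), a contrast that was not tested. Both values of the first set rest on 1 AI-7-54 array, at 10.60. The call for AI-8-45 was kept in 5 of 11 fits with 1 array left out (adjusted p 0.0346 to 0.119), ending without any 1 of the AI-7-54 arrays and without replicate 1, 2 or 4 of AI-8-45. The call for AI-9-54 was kept in all 11 (adjusted p up to 0.0359). E2f2 was 8.63, 8.74 and 8.82 with AI-7-54, 8.63, 8.46, 8.79 and 8.89 with AI-8-45, and 8.70, 8.75, 9.06 and 8.89 with AI-9-54. Its groups overlapped, and its differences from AI-7-54 were -0.04 (95% interval -0.27 to 0.19) with AI-8-45 and 0.12 (-0.11 to 0.34) with AI-9-54.

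**Figure D3:**
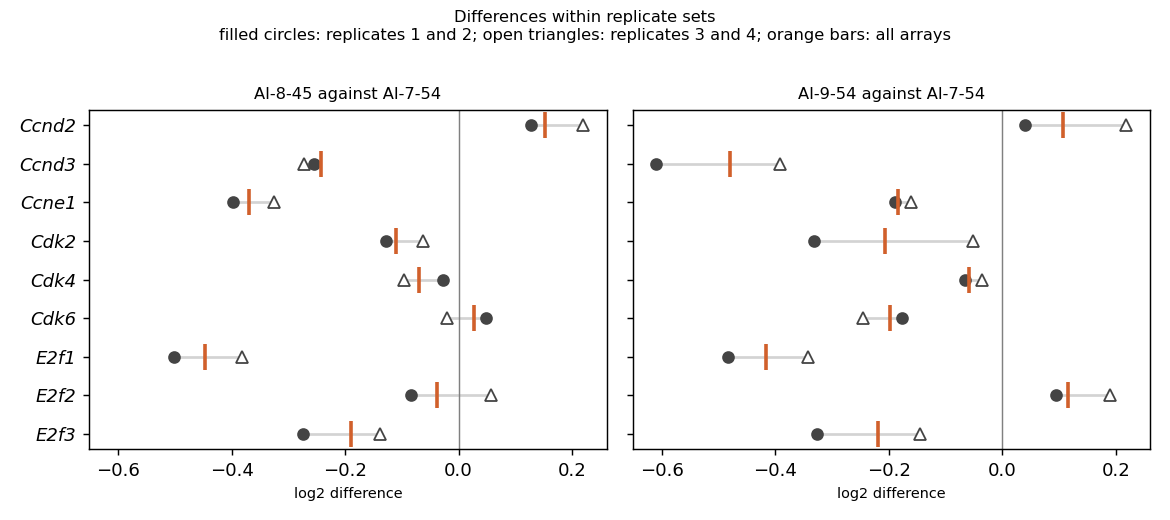
Log2 differences from AI-7-54 (horizontal axes) of the 9 genes within replicates 1 and 2 (filled circles), within replicates 3 and 4 (open triangles) and over all arrays (orange bars), for AI-8-45 (left) and AI-9-54 (right). The 4 genes called with AI-8-45 and the 5 called with AI-9-54 lie below 0 in both sets, from -0.61 for Ccnd3 to -0.14 for E2f3. All values within replicates 1 and 2 rest on 1 AI-7-54 array, the same for both compounds. Cdk2 with AI-9-54 is at -0.33 in one set and at -0.05 in the other.

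Windows around annotated transcript starts of these genes were searched because E2F and Runt-domain factors bind DNA and several of the genes were lower together. Of the listed genes, 8 matched a symbol of the RefSeq promoter table (build GRCm38.p6), which holds 11 windows for them, each from 250 bases before to 50 after a transcript start. The E2F motif TTTNNCGC was found on either strand in 4 of the 11 windows (Cdk2, Cdk6, E2f2 and E2f3), beside 5.17% of all 32851 windows in the table. The Runt motif TGNGGT was found in 2 (Ccnd3 and Cdk4), beside 45.8% of all windows. The GC box GGGCGG was found in 9, beside 35.7%. None of the E2F or Runt matches overlapped a GC box. A match describes the letters only. E2f1 and Ccne1, with the larger differences between AI-8-45 and AI-7-54, held neither an E2F nor a Runt match in their window. The table holds 1 window for E2f1 and 1 for Ccne1, and whether either start is the one used in these cells was not tested. Bases outside these windows, or at other starts, were not searched, so a missing match does not describe the whole promoter and says nothing of a promoter that lies elsewhere. The 250 bases before the start site are given for the windows with a match there, with E2F and Runt matches in capitals, for Cdk6 and E2f3 (lower with AI-9-54 than with AI-7-54) and for Cdk2 and Cdk4 (not called).
Cdk6 (chr5:3343643-3343892, plus strand): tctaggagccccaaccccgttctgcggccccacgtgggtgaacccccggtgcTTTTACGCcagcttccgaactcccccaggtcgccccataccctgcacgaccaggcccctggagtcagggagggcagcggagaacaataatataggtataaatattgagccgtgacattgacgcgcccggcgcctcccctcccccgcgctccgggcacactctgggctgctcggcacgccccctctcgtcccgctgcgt
E2f3 (chr13:29986064-29986313, minus strand): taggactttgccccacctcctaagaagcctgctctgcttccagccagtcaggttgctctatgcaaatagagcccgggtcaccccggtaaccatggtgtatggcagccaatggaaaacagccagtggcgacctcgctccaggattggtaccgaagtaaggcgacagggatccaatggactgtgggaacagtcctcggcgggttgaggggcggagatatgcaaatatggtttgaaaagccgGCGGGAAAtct
Cdk2 (chr10:128705052-128705301, minus strand): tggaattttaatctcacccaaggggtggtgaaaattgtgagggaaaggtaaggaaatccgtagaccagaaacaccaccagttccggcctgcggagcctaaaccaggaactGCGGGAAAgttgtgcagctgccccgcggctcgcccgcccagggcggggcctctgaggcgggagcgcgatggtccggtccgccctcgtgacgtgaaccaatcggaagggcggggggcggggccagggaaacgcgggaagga
Cdk4 (chr10:127063285-127063534, plus strand): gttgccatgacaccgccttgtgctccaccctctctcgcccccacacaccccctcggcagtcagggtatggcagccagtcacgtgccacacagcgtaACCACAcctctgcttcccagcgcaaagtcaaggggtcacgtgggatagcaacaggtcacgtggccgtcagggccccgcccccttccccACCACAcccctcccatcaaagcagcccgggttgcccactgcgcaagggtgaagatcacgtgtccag
The E2F match begins at base -198 in Cdk6, at base -140 in Cdk2 and at base -11 in 1 of the 2 windows of E2f3. E2f3 and Cdk2 carry the same 8 letters (GCGGGAAA, the reverse strand of the motif). The Runt matches of Cdk4 begin at bases -154 and -66. In Ccnd3 the Runt match (TGCGGT) begins at base 28 after the start, in 1 of its 2 windows. E2f2 holds E2F matches at bases 5 (TTTTCCGC) and 40 (TTTGGCGC) after the start in 1 of its 2 windows. Genes with a match were thus found among those called and among those not called.

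Around these members stand the pocket proteins, the other E2F and DP factors, the CDK inhibitors and further factors that act on CDKs or on protein turnover. A set of 7 lists of such genes (73 of 77 measured) was read from the same fit. With AI-8-45 against AI-7-54, 2 were called higher and 11 lower, and with AI-9-54 against AI-7-54, 6 were higher and 16 lower, beside 2.13% and 3.53%, and 6.87% and 7.29%, of all genes. Without AI-7-54 replicate 3, 1 was called higher and 6 lower with AI-8-45, and without AI-7-54 replicate 4, 1 and 7. The medians over the 73 genes were -0.07 and -0.12, beside 0.00 for all genes in each comparison. Between AI-9-54 and AI-8-45, limma called 1 of 73 (E2f4), and 19 had an unadjusted p under 0.05, beside 1.31% and 11.4% of all genes.

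The other E2F and DP factors differed from AI-7-54 in both directions within their list. Of 7 such factors, 2 were called lower and 1 higher with AI-8-45 than with AI-7-54, beside 3.53% and 2.13% of all genes. With AI-9-54, 2 were called lower and 2 higher than with AI-7-54, beside 7.29% and 6.87%. The medians of the 7 were -0.09 and -0.15. E2f4, an E2F that works mainly with pocket proteins to repress genes, was 11.09, 11.02 and 11.06 with AI-7-54, 10.77, 10.71, 10.76 and 10.72 with AI-8-45, and 10.49, 10.53, 10.61 and 10.56 with AI-9-54. Its groups did not overlap. AI-8-45 lay below AI-7-54 in this way for 9.07% of all genes, AI-9-54 below AI-7-54 for 12%, and AI-9-54 below AI-8-45 for 2.84%. The E2f4 differences from AI-7-54 were -0.32 ± 0.04 (SE, adjusted p 0.00102) and -0.51 ± 0.04 (adjusted p 9.76e-06). Both calls were kept in all 11 fits with 1 array left out. E2f4 was also lower with AI-9-54 than with AI-8-45 (-0.19, adjusted p 0.0358), a call kept in 2 of 11 such fits (those without AI-7-54 replicate 1 or AI-9-54 replicate 3; adjusted p up to 0.113).

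Tfdp1, which encodes the DP1 partner of E2Fs, was 11.75, 11.72 and 11.75 with AI-7-54, 11.42, 11.39, 11.42 and 11.45 with AI-8-45, and 11.22, 11.26, 11.34 and 11.36 with AI-9-54. It was lower by -0.32 (adjusted p 0.0013) and -0.44 (adjusted p 3.85e-05) from AI-7-54. Tfdp2, the gene of the related partner DP2, was higher, by 0.23 with AI-8-45 (adjusted p 0.0276, kept in 5 of 11 fits with 1 array left out and ending without any 1 of the AI-7-54 arrays or replicate 1, 3 or 4 of AI-8-45) and by 0.33 with AI-9-54 (adjusted p 0.00154). E2f8, an E2F that represses genes without a DP partner, was higher with AI-9-54 than with AI-7-54 by 0.29 (adjusted p 0.0196, not called without AI-7-54 replicate 1 or 3) and differed by 0.12 with AI-8-45 (adjusted p 0.485).

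Among the 3 pocket protein genes, 1 was called higher with AI-8-45 and 2 with AI-9-54, beside 2.13% and 6.87% of all genes. None of the 3 was called lower. Rbl2, which encodes p130, the pocket protein of resting cells, was 9.63, 9.57 and 9.55 with AI-7-54, 9.89, 9.79, 9.80 and 9.88 with AI-8-45, and 9.92, 10.06, 10.02 and 10.04 with AI-9-54. The groups did not overlap (AI-8-45 lay above AI-7-54 in this way for 6.79% of all genes and AI-9-54 for 11.3%), and the differences from AI-7-54 were 0.26 (adjusted p 0.00802) and 0.42 (adjusted p 9.22e-05), kept in all 11 fits with 1 array left out. Rb1, the retinoblastoma gene, was higher with AI-9-54 than with AI-7-54 by 0.26 (adjusted p 0.00452), while with AI-8-45 the difference was 0.07 (95% interval -0.04 to 0.18). A second Rb1 probe set, at a dim mean of 5.03, differed by 0.03 with AI-9-54. Rbl1, the gene of p107, differed by 0.02 in each comparison with AI-7-54.

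Of 7 CDK inhibitor genes, 0 were called in any comparison by limma, with 0, 1 and 0 at an unadjusted p under 0.05. Cdkn1b, which encodes the cyclin E-CDK2 inhibitor p27, differed by 0.29 with AI-8-45 (adjusted p 0.304) and 0.39 with AI-9-54 (adjusted p 0.0765) from AI-7-54. Those values were 0.34 and 0.40 within replicates 1 and 2 and 0.34 and 0.48 within replicates 3 and 4, and both passed when the fit included the replicate set (adjusted p 0.00157 and 8.6e-05). Cdkn2c, the gene of the CDK4 and CDK6 inhibitor p18, differed by 0.18 with AI-8-45 (adjusted p 0.306), and passed when the fit included the set (adjusted p 0.0384). Cdkn1a, the gene of p21 and a p53 target, had group means of 9.83 to 10.11 with SDs of 0.36 to 0.58. Its 95% interval for AI-8-45 against AI-7-54 reached from -0.74 to 0.52. Cdkn1a was 10.40, 9.73 and 9.71 with AI-7-54, 10.29, 10.32, 9.13 and 9.59 with AI-8-45, and 10.42, 10.41, 9.91 and 9.70 with AI-9-54. Every array of replicates 1 and 2 thus lay above every array of replicates 3 and 4.

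A list of 11 genes holds factors that activate or inhibit CDKs or act in the turnover of cell-cycle proteins. Of these, 1 was called lower with AI-8-45 and 4 with AI-9-54 against AI-7-54, beside 3.53% and 7.29% of all genes. None of the 11 was called higher. Of the 11 differences, 8 and 9 were below 0, with medians of -0.14 and -0.23. Skp2, the ubiquitin ligase subunit that marks p27 for destruction, was 10.79, 10.88 and 10.81 with AI-7-54, 10.54, 10.46, 10.63 and 10.58 with AI-8-45, and 10.31, 10.31, 10.44 and 10.46 with AI-9-54. It was lower by -0.27 with AI-8-45 (adjusted p 0.0137, not called without AI-7-54 replicate 3 or 4) and by -0.45 with AI-9-54 (adjusted p 0.00022). Lower with AI-9-54 were also Fbxo31, which encodes a ubiquitin ligase subunit (-0.34, adjusted p 0.000832), the phosphatase gene Cdc25a, whose product activates CDK2 (-0.27, adjusted p 0.00199), and the inhibitory kinase gene Wee1 (-0.37, adjusted p 0.033, not called without AI-7-54 replicate 3 or 4 or AI-9-54 replicate 1 or 2). Of the 10 other cyclin and CDK genes, limma called 0 in any comparison (1, 0 and 1 at an unadjusted p under 0.05).

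Of 19 S-phase genes known as E2F targets, 8 were called lower with AI-8-45 and 8 with AI-9-54 against AI-7-54. The shares of all genes called lower were 3.53% and 7.29%, and none of the 19 was called higher. The medians were -0.27 and -0.28 beside 0.00 for all genes, and all 19 differences were below 0 in each of these comparisons. The replication licensing gene Cdc6 was 10.28, 10.55 and 10.42 with AI-7-54, 9.79, 9.69, 9.95 and 10.10 with AI-8-45, and 9.82, 9.91, 10.08 and 9.99 with AI-9-54. The AI-7-54 arrays lay above all others, with differences of -0.53 (adjusted p 0.00692) and -0.47 (adjusted p 0.00627). Such a gap below AI-7-54 was seen for 9.07% of all genes with AI-8-45 and for 12% with AI-9-54. Orc1, a subunit gene of the origin recognition complex, was lower by -0.42 and -0.47, the thymidine kinase gene Tk1 by -0.43 and -0.50, and Uhrf1, which keeps DNA methylation through replication, by -0.44 and -0.49. These calls, with those of Cdc6, were kept in all fits with 1 array left out. Between AI-9-54 and AI-8-45, limma called 0 of the 19 (1 at an unadjusted p under 0.05), with a median of 0.00.

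Of 16 genes that act upstream of the D-type cyclins, limma called 0 with AI-8-45 against AI-7-54. At an unadjusted limma p under 0.05 there were 4 of 16, beside 16.7% of all genes. With AI-9-54 against AI-7-54, 2 were called higher and 2 lower, beside 6.87% and 7.29% of all genes. Myc, a growth factor-responsive activator of G1 cyclin genes, was 12.15, 11.91 and 11.96 with AI-7-54, 12.05, 11.93, 11.89 and 11.84 with AI-8-45, and 11.67, 11.69, 11.26 and 11.32 with AI-9-54. The AI-9-54 arrays lay below all others, by -0.52 from AI-7-54 (adjusted p 0.00573), while AI-8-45 differed by -0.08 (95% interval -0.31 to 0.16). AI-9-54 lay without overlap below AI-7-54 for 12% of all genes and below AI-8-45 for 2.84%. Myb, which is needed for T-cell progenitor growth, was lower with AI-9-54 by -0.23 (adjusted p 0.0014). Foxo1 and Foxo3, genes of factors that restrain the cell cycle, were higher with AI-9-54 by 0.59 (adjusted p 0.000578) and 0.31 (adjusted p 0.0071). A second, dim Foxo1 probe set (mean 6.55) differed by -0.08.

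**Figure D4:**
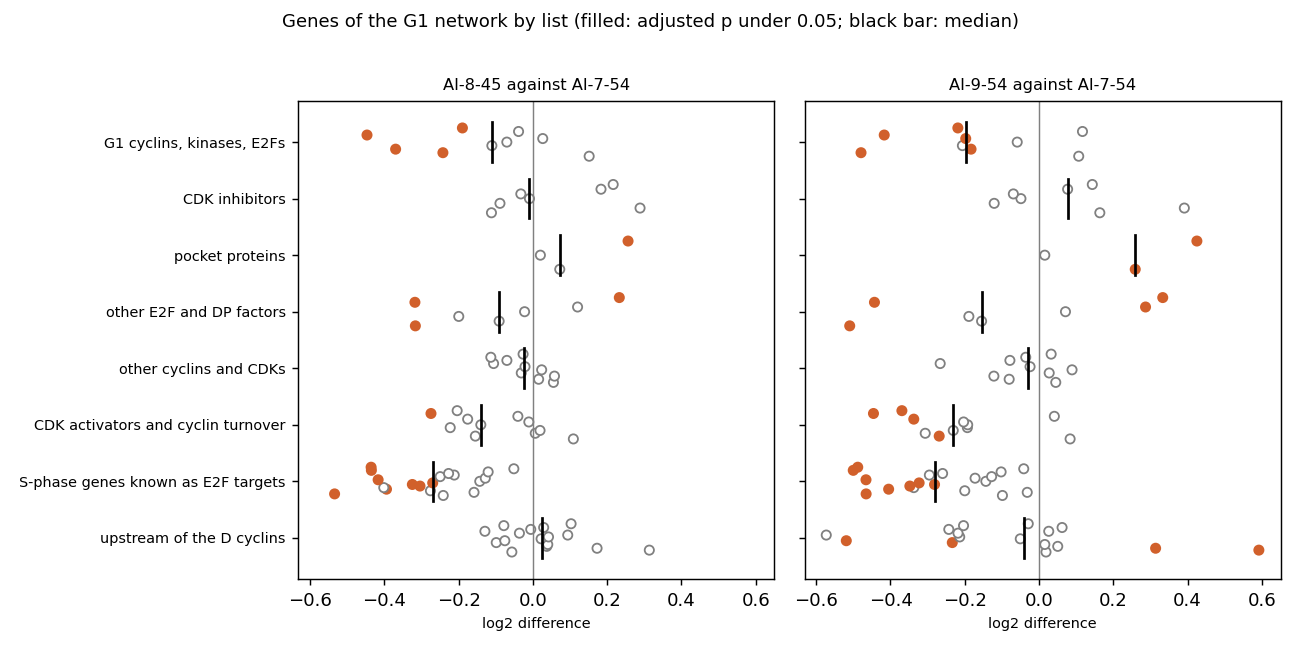
Log2 differences from AI-7-54 (horizontal axes) of the 9 members (top line) and of 73 genes in 7 lists of the G1 network, with 1 point per gene, filled where the adjusted p is under 0.05, and a black bar at each list's median. All 19 S-phase genes lie below 0 with either compound, with medians of -0.27 and -0.28, and the pocket proteins lie above 0, with medians of 0.07 and 0.26.

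The genes most like each called member were found by the root mean square distance between log2 profiles over the 11 arrays, each centred on its own mean, among 2965 other genes that were called in at least 1 comparison and whose symbols are not those of predicted, clone, microRNA or small nucleolar RNA genes. Nearest to E2f1 were Rexo2 (0.06), Chaf1b (0.06), the p60 subunit gene of chromatin assembly factor 1, and Nln (0.06), beside 0.21 for the distance of E2f1 from a flat profile. Nearest to Ccne1 were Tmem109 (0.05), the helicase gene Recql4 (0.05) and Opn3 (0.07), beside 0.16. Nearest to Ccnd3 were Focad (0.05), Cntn1 (0.06) and Tcof1 (0.06), a gene of ribosomal RNA synthesis, beside 0.20. Nearest to Cdk6 were Ndst2, Afdn and Gnb1l (0.04 each, beside 0.12), and nearest to E2f3 were Cpped1, Ston2 (0.03 each) and Camkv (0.04), beside 0.10. These distances describe the arrays and carry no test.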

How the data were processed

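Total RNA of 11 samples was amplified, labelled with biotin and hybridised to Affymetrix whole-transcript arrays, per the labels' protocols. The deposited values are log2 signals, 1 per probe set and array, made with RMA and Partek 6.6 per the submitters' processing notes. They were read as log2 from their range of 3.23 to 13.8. The genome build of the authors' annotation is not given in the sources used here. Of 41345 probe sets, 23521 carried a single gene symbol, 1814 more than 1, and for 16010 the annotation used here gives none. Entrez identifiers, 23328 of them found in a GRCm38.p6 table, gave current symbols. The highest-mean probe set represented each of 22180 genes. Dim genes were kept. Precision is limited by how many arrays there are.

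One limma 3.58.1 model (R 4.3.3; lmFit, contrasts.fit, eBayes; 8 residual and 4.14 prior degrees of freedom) on all 11 arrays gave the 3 comparisons with two-sided tests. Benjamini-Hochberg adjustment covered all genes of a comparison. The script was tested on simulated data. Changes of 0.25 log2 were recovered for 32% of the genes given them in AI-8-45 against AI-7-54 and for 46% in each comparison with AI-9-54. Differences of that size can therefore go uncalled. Alternatives were other scalings, filters, probe-set rules and variance settings, the replicate number or set in the model, each set alone, a fit on just the groups compared, and leaving out every array in turn. Members and lists were chosen with earlier results of these data known. Named were all members, Rb1, Cdkn1a, Cdkn1b, Cdkn2c, up to 4 called genes per list and direction with the largest differences, and the 3 nearest profiles. Rbl1, Ccnd1, Cd3e, Pecam1, Epor and Pdgfrb were named after their values were seen. Plots used matplotlib 3.10.9 (Python 3.11.15).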

Additional observations from a re-analysis of the deposited data

How the results depend on the processing

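Over 23 alternatives, E2f1 and Ccnd3 with AI-9-54 against AI-7-54 kept their call and direction in all, E2f1 with AI-8-45 in 22 and Ccne1 with AI-8-45 in 21. The other member calls were kept in 9 (Ccnd3 with AI-8-45), 12 (E2f3 with AI-8-45; Ccne1 with AI-9-54), 14 (Cdk6) and 21 (E2f3 with AI-9-54). Of 621 values of members under alternatives, 547 kept direction and side of the threshold, 50 lost the call, 8 gained it and 16 changed sign, none of the 16 called. The causes were not tested, beyond the smaller number of arrays or genes that some alternatives hold. Without a vehicle group or a background level per probe set, small differences in dim genes cannot be judged.

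Members called between AI-8-45 and AI-7-54 (4) were 2 with median scaling, the replicate block or only the groups compared, 0 within replicates 1 and 2 (0 of 73 network genes, 2 of all genes, with 1 AI-7-54 array) and 1 within replicates 3 and 4 (7 and 613). With the replicate set as a factor, 1949 genes and 23 network genes were called. With 1 array left out the ranges were 2 to 4 members, 540 to 1229 genes and 7 to 15 network genes, lowest for all genes without AI-7-54 replicate 3 (540) or 4 (622).

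Members called between AI-9-54 and AI-7-54 (5) were 2 within replicates 1 and 2 (6 network genes, 593 genes), 3 within replicates 3 and 4 and 3 with only the groups compared. Network genes numbered 37 with the replicate set as a factor. With 1 array left out the ranges were 3 to 5 members, 2103 to 3290 genes and 19 to 24 network genes.

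Between AI-9-54 and AI-8-45 (0 members, 1 network gene, 290 genes), members called were 2 with gene means above the median (436 genes, 4 network genes), 1 with an intensity trend (4 network genes), 1 with the replicate block (517 genes, 9 network genes) and 3 with the replicate set as a factor (816 and 13). Genes and network genes called were 6 and 0 within replicates 1 and 2, 143 and 2 within replicates 3 and 4, and 141 and 0 with only the groups compared. Network genes were 0 with median scaling and 2 with gene means above the 25th percentile, the mean over probe sets or array weights. With 1 array left out the ranges were 0 to 1 members, 128 to 257 genes and 0 to 2 network genes.

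Sign changes of uncalled differences were, between AI-8-45 and AI-7-54, Cdk6 at -0.0036 and E2f2 at 0.016 with the replicate block, E2f2 at 0.0015 with the replicate set, Cdk6 at -0.020 and E2f2 at 0.057 within replicates 3 and 4, E2f2 at 0.0067 without AI-7-54 replicate 4, and Cdk6 at -0.0062 and E2f2 at 0.040 without AI-8-45 replicate 2. Between AI-9-54 and AI-8-45 they were Cdk4 at -0.038 within replicates 1 and 2, -0.011 without AI-8-45 replicate 3 and -0.013 without AI-9-54 replicate 4, Cdk2 at 0.011 within replicates 3 and 4, E2f1 at -0.0015 without AI-9-54 replicate 3, and Ccnd2 at 0.025, 0.0066 and 0.0084 without AI-8-45 replicate 4 and AI-9-54 replicates 1 and 2.

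With 1 array left out, Cdk6 and E2f2 ranged from -0.0062 to 0.053 and from -0.10 to 0.040 in the first comparison, and Ccnd2, Cdk4 and E2f1 from -0.11 to 0.025, from -0.013 to 0.033 and from -0.0015 to 0.070 in the last.

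Same-numbered arrays of different groups correlated at -0.02 to 0.45 in their deviations from the group means, over 0.1 in 6 of 10 pairs, so the numbers were not taken to pair the arrays. 3 of 11 arrays correlated best with an array of their own number. With the replicate block, Ccnd3 (adjusted p 0.0632) and E2f3 (0.0811) lost their call between AI-8-45 and AI-7-54, and Cdk6 (0.0174) gained one between AI-9-54 and AI-8-45.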
